A study of Mus musculus with 4 samples.

Results

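The enzymes described here make bile acids and clear oxysterols, and they were measured in mouse kidney 2 weeks after the bile duct was tied off. The set held 10 genes, Cyp7a1, Cyp8b1, Cyp7b1, Cyp27a1, Hsd3b7, Akr1d1, Amacr, Slc27a5, Acox2 and Scp2. Its members were found as the non-control probes whose RefSeq accession belongs to 1 of these genes, which gave 12 probes on 30 spots, out of 55681 probes on 59305 spots and 20656 named genes. Kidney total RNA was compared between 2 replicates from mice after a sham operation and 2 replicates from mice after bile duct ligation (BDL), a surgical model of cholestasis in which bile can no longer leave the liver. Replicates are biological, per the series' design text. Whether each stands for 1 animal or a pool, and the strain, age and sex, are not given in the labels used here. Every sample had its own 1-colour array, with Cy3 as the dye. Levels are given as log2 of the spot signal over that array's 75th percentile, so that 0 is the signal of a probe at that percentile, and differences are BDL minus sham. Precision is limited by having 2 arrays in each group.

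Bile acids are made from cholesterol by a chain of enzymes that is complete in hepatocytes. The classical route starts with 7alpha-hydroxylation of cholesterol by CYP7A1 in the endoplasmic reticulum, while the alternative route starts with side-chain oxidation by CYP27A1 in mitochondria, after which CYP7B1 hydroxylates the oxysterol. Both routes then share the enzymes that rearrange the sterol ring and the peroxisomal enzymes that shorten the side chain. The kidney carries parts of this chain, and several of its enzymes also act there on other oxysterols, steroids or branched-chain fatty acids.

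All 9 kidney markers looked up, among them uromodulin (Umod) and the phosphate transporter Slc34a1, were well above background on every array. The share of all spots that were so ran from 57.7% to 63.1% over the arrays, and 0 spots were saturated. The transcript Xist was below that mark on all 4 arrays and the Y-linked genes Ddx3y and Eif2s3y were above it on all 4, at 1.52 to 1.63 and at 1.49 to 1.56. Sham replicate 1 had the highest level in 7 of 8 interferon response genes, Rsad2 being the exception. The summed level of the 8 (the sum over genes of the signal divided by the array's 75th percentile), in which bright genes weigh most, was 25.8 against 9.76 in sham replicate 2, 8.12 in BDL replicate 1 and 6.21 in BDL replicate 2. Because whole tissue was measured, fewer cells of a type and less RNA per cell cannot be told apart.

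Promoters of 3 genes are shown, the members with a window outside the gene's own span. They were not chosen by expression: Acox2 was lower in BDL, Hsd3b7 had overlapping groups and Cyp8b1 had no detectable signal. The windows are the 250 bases before the start in RefSeq's GRCm38.p6 table, which held 7 windows for 6 of the 10 genes. The 3 windows that lie outside the gene's own span are printed 5′ to 3′ on the gene's strand. Capitals mark matches, on either strand, to any of 7 motifs searched.
Acox2, chr14:8259020-8259269, minus strand: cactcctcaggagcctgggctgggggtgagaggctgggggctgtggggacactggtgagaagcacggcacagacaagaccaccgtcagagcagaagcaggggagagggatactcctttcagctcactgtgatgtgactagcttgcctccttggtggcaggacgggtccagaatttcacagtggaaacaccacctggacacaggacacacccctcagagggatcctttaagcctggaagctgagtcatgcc
Hsd3b7, chr7:127800359-127800608, plus strand: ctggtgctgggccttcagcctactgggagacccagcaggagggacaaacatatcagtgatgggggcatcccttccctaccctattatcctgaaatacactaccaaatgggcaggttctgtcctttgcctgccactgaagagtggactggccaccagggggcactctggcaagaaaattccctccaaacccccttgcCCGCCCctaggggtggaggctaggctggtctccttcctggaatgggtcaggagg
Cyp8b1, chr9:121916306-121916555, minus strand: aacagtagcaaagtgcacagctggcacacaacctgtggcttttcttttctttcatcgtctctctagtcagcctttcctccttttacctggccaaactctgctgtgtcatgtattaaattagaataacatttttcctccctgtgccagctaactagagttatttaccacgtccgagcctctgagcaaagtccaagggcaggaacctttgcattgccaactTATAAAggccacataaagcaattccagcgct
The Cyp8b1 window holds the TATA box TATAAA at position -31 from the start, a motif found in 12.4% of all 32851 windows of this length. The Hsd3b7 window holds the GC box GGGCGG on the other strand, at position -54, a motif of 32.7% of all windows. The nuclear receptor motif AGGTCA occurs in 14% of all windows, its extended form CAAGGTCA in 1.33% and a direct repeat of it with 1 base between the copies in 0.0335%. The CCAAT box occurs in 33.8% and the E box CACGTG in 6.02%. None of these 5 has a match in the 3 windows. The motif AGGTCA also lies within its extended form and within the repeat. A match is a description of the letters and not a binding site.

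The enzymes that open and steer the classical route gave no detectable signal in the kidney. Cyp7a1, the rate-limiting 7alpha-hydroxylase of that route, had processed signals of 5.80 and 4.96 in sham and of 5.54 and 5.01 in BDL kidneys. Cyp8b1, the 12alpha-hydroxylase that sets the share of cholic acid, had 6.0 and 5.12 in sham and 5.33 and 5.22 in BDL kidneys. Neither probe was well above background on any of the 4 arrays, where the lowest signal of a probe that was lay between 23.3 and 27.4. No difference is given for these genes, and a level below that limit could not be told from none.

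**Figure D1:**
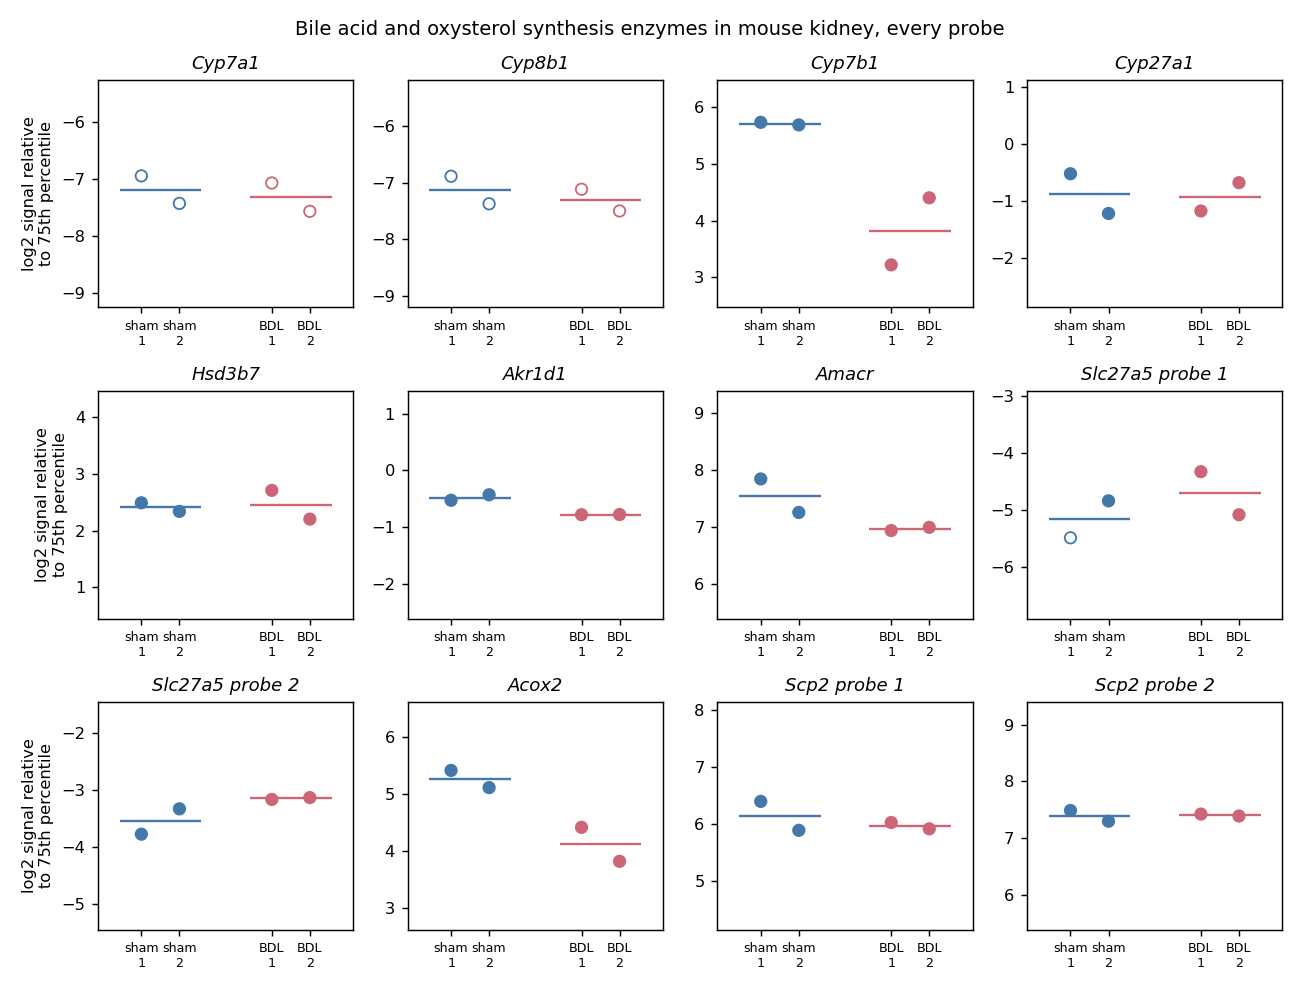
Log2 signal relative to the array's 75th percentile (y axis, each panel spanning 4 log2 units) of every probe of the 10 enzymes on the sham and BDL arrays (x axis); lines are group means (n = 2) and open points are spots not well above background. Cyp7b1 and Acox2 have both BDL arrays clearly below both sham arrays, while Cyp7a1 and Cyp8b1 are open on all 4 arrays.

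The alternative route showed the largest difference of the set, in its oxysterol 7alpha-hydroxylase. Cyp7b1, which hydroxylates side-chain oxysterols and also some steroids, was at 5.72 and 5.68 on the sham arrays and at 3.22 and 4.40 on the BDL arrays. The groups did not overlap, and the higher BDL array lay 2.43-fold below the lower sham array. The sham arrays were 1.03-fold apart and the BDL arrays 2.26-fold, with BDL replicate 1 the lowest. Mean levels were 5.70 ± 0.03 for sham and 3.81 ± 0.83 for BDL (SD of log2 signals, n = 2), which is 3.71-fold lower in BDL. That difference of -1.89 (SE 0.43, 95% interval -3.03 to -0.76, or from 1.69-fold to 8.16-fold lower) did not pass the test over all retained probes (limma adjusted p = 0.794). Its absolute difference ranked 306 among the 32280 retained probes, so that 0.945% of them differed by more. Without BDL replicate 1 the difference was -1.30, and without BDL replicate 2 it was -2.48.

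Cyp27a1, the mitochondrial sterol 27-hydroxylase that feeds Cyp7b1, was at -0.53 and -1.22 on the sham arrays and at -1.18 and -0.68 on the BDL arrays. Sham replicate 1 and BDL replicate 2 were high and the other two arrays low, so the groups overlapped. The difference was -0.06 (SE 0.34, adjusted p = 0.981), and its 95% interval (-0.95 to 0.84) spans BDL levels of 0.517 to 1.79 times those in sham. Its sign depended on the arrays: leaving out sham replicate 2 gave -0.41, and leaving out sham replicate 1 gave 0.29.

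The split of Cyp27a1 between arrays was larger than the spread of its spots. This probe sits on 10 spots per array, of which 1 on sham replicate 1 was an outlier and was left out. The SD over the spots was between 0.07 and 0.09 on the log2 scale, with a coefficient of variation between 4.67% and 6.48%. The processed signals, before scaling between arrays, ran from 462 to 521 on sham replicate 1 and from 556 to 657 on BDL replicate 2, against 325 to 400 on sham replicate 2 and 294 to 354 on BDL replicate 1. Macrophages also express Cyp27a1. The 7 measured of 8 macrophage markers had summed levels of 69.6 and 61.0 on the sham arrays and of 64.1 and 58.4 on the BDL arrays. Of the 7, the 3 genes Adgre1, Lyz2 and C1qa, singled out after their values were seen, were highest on sham replicate 1 and lowest on sham replicate 2, as Cyp27a1 was. The 4 others, Cd14, Mrc1, Itgam and Csf1r, did not follow this order, and Cd14 was lowest on sham replicate 1. Their part in the Cyp27a1 values was not tested.

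**Figure D2:**
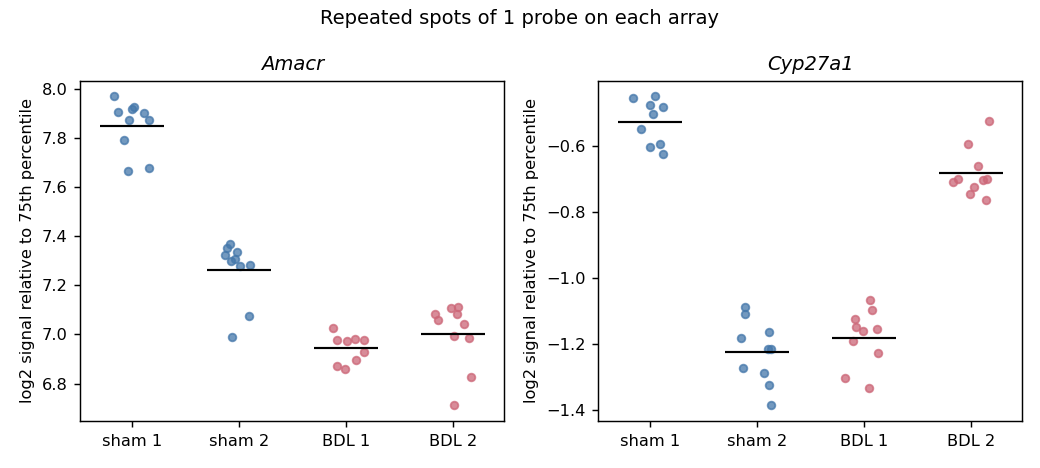
Log2 signal relative to the array's 75th percentile (y axis) of each spot that was not an outlier, for the Amacr and Cyp27a1 probes on the 4 arrays (x axis); bars are means over 9 or 10 spots of the same array, which are not replicates of a condition. The Cyp27a1 spots of sham replicate 1 and BDL replicate 2 lie apart from those of the other two arrays.

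The enzymes that rearrange the sterol ring in both routes showed small differences. Hsd3b7, the 3beta-hydroxysteroid dehydrogenase that acts right after 7alpha-hydroxylation, was at 2.49 and 2.34 in sham and at 2.71 and 2.20 in BDL kidneys. The BDL values lay on either side of the sham values, and the difference was 0.04 (SE 0.26, 95% interval -0.64 to 0.72, adjusted p = 0.982). Akr1d1, the 5beta-reductase that bends the ring system into the shape of a bile acid, was at -0.52 and -0.43 in sham and at -0.78 and -0.77 in BDL kidneys. Its groups did not overlap and the BDL arrays were 1.00-fold apart, but the difference was small, 1.23-fold lower in BDL (-0.30, SE 0.19, 95% interval -0.81 to 0.21, adjusted p = 0.868).

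Among the peroxisomal enzymes of the side chain, Acox2 stood lowest in BDL. Acox2, the branched-chain acyl-CoA oxidase that takes the first step of side-chain shortening, was at 5.42 and 5.11 in sham and at 4.42 and 3.82 in BDL kidneys. Both BDL arrays lay below both sham arrays, with 1.62-fold between the nearest values, while the arrays of a group were 1.23-fold (sham) and 1.51-fold (BDL) apart. Mean levels were 5.27 ± 0.21 for sham and 4.12 ± 0.42 for BDL (SD, n = 2), 2.21-fold lower in BDL. The difference of -1.15 (SE 0.29, 95% interval -1.91 to -0.38) did not pass over all retained probes (adjusted p = 0.813), and 3.25% of them differed by more. It lay between -1.45 and -0.85 with any 1 array left out.

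Amacr, the racemase that turns the side chain into the form the oxidase accepts, was at 7.85 and 7.26 in sham and at 6.94 and 7.0 in BDL kidneys. The groups did not overlap, with sham replicate 1 alone high, and Amacr was 1.50-fold lower in BDL (-0.58, SE 0.27, 95% interval -1.30 to 0.13, adjusted p = 0.867). Without sham replicate 1 the difference was -0.29, and without sham replicate 2 it was -0.88. Its probe was spotted 10 times per array, with 1 outlier spot on BDL replicate 1, and the SD between spots was 0.06 to 0.13. That spread is technical and says nothing of the spread between kidneys, where the sham arrays were 1.50-fold apart. Single spots of the groups overlapped, the lowest of sham replicate 2 being at 6.99 and the highest of BDL replicate 2 at 7.11.

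Scp2, whose longer product is the thiolase that ends side-chain shortening and whose shorter product is a sterol carrier protein, had 2 probes that gave the same picture. The first probe (A_51_P444052) was at 6.40 and 5.89 in sham and at 6.03 and 5.92 in BDL kidneys, a difference of -0.17 (SE 0.26, 95% interval -0.85 to 0.50, adjusted p = 0.927). The second (A_55_P1970670) was at 7.49 and 7.30 in sham and at 7.43 and 7.39 in BDL kidneys, a difference of 0.01 (SE 0.20, 95% interval -0.51 to 0.54, adjusted p = 0.992). On both probes the BDL values lay within the sham values. Which of the Scp2 transcripts each probe reads is not given in the files used here.

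Slc27a5, the bile acyl-CoA synthetase that in liver prepares returning bile acids for conjugation, was dim on both of its probes. Its second probe (A_55_P2073557) was well above background on all 4 arrays, at -3.77 and -3.33 in sham and at -3.16 and -3.13 in BDL kidneys. Here the BDL arrays lay above the sham arrays, 1.32-fold by the means (0.40, SE 0.24, 95% interval -0.23 to 1.04, adjusted p = 0.868), and the difference was 0.18 without sham replicate 1. The first probe (A_51_P289742) was well above background on 1 of the 2 sham arrays and on both BDL arrays, at -5.49 and -4.84 in sham and at -4.33 and -5.08 in BDL kidneys. It entered the fit only through the BDL group, so no test is given for it. Its groups overlapped, and its difference of 0.46 was 0.13 without sham replicate 1 and 0.08 without BDL replicate 1. With normexp background correction the differences of the second and the first probe were 0.18 and 0.13.

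**Figure D3:**
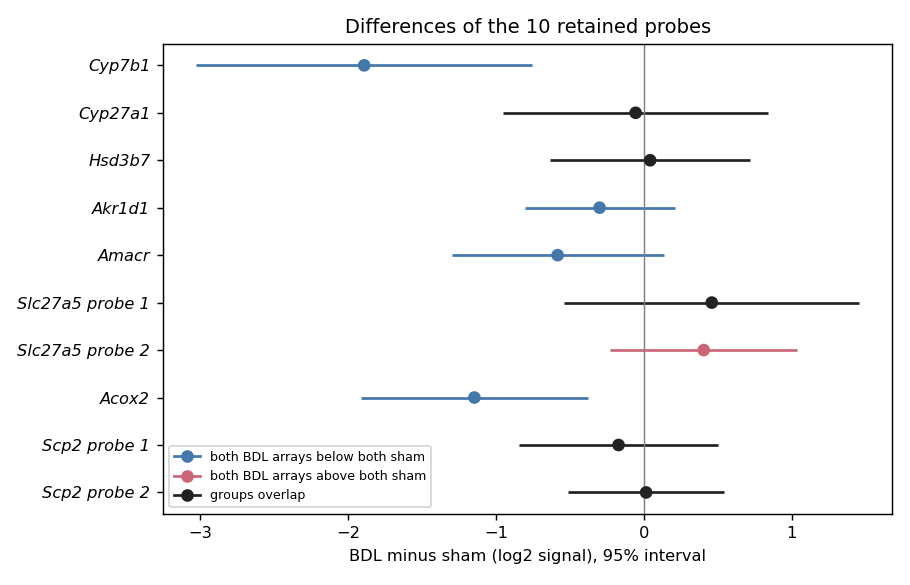
Difference BDL minus sham in log2 signal (x axis) with its 95% interval from limma for the 10 retained probes (y axis), coloured by whether the groups overlap. The intervals of Cyp7b1 (-3.03 to -0.76) and Acox2 (-1.91 to -0.38) lie below 0, although neither passed after adjustment over all retained probes. The first Slc27a5 probe is drawn as fitted, although it entered only through the BDL group.

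Over the set, 10 of the 12 probes, from 8 of the 10 genes, were well above background on both sham or both BDL arrays and entered the fit. The first Slc27a5 probe did so only through the BDL group and is left out of the counts that follow. With limma, 0 of the 9 others passed an adjusted p of 0.05, as did 0% of all 32280 retained probes. Of the 9, 2 (Cyp7b1 and Acox2) had an unadjusted p under 0.05. That call was received by 5.65% of all retained probes, 2.94% in the lower direction. Groups did not overlap for 5 of the 9 probes, against 36.7% of all retained probes. For 4 of the 5 the BDL arrays were the lower ones (Cyp7b1, Acox2, Amacr and Akr1d1), against 18.5% of all retained probes, and for 1 (Slc27a5) the higher, against 18.2%. At least 2-fold lower in BDL were 2 of the 9, against 2.48% of all, and both also without overlap, against 1.93% of all. The median difference was -0.11 over the 10 probes, -0.17 over the 9 that were well above background on all 4 arrays and -0.00034 over all retained probes. The median over the 10 probes, the first Slc27a5 probe among them, rested on the sham arrays. It was 0.10 without sham replicate 1 and -0.33 without sham replicate 2. The probes that were retained are not all members, since Cyp7a1 and Cyp8b1 were too dim to enter.

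**Figure D4:**
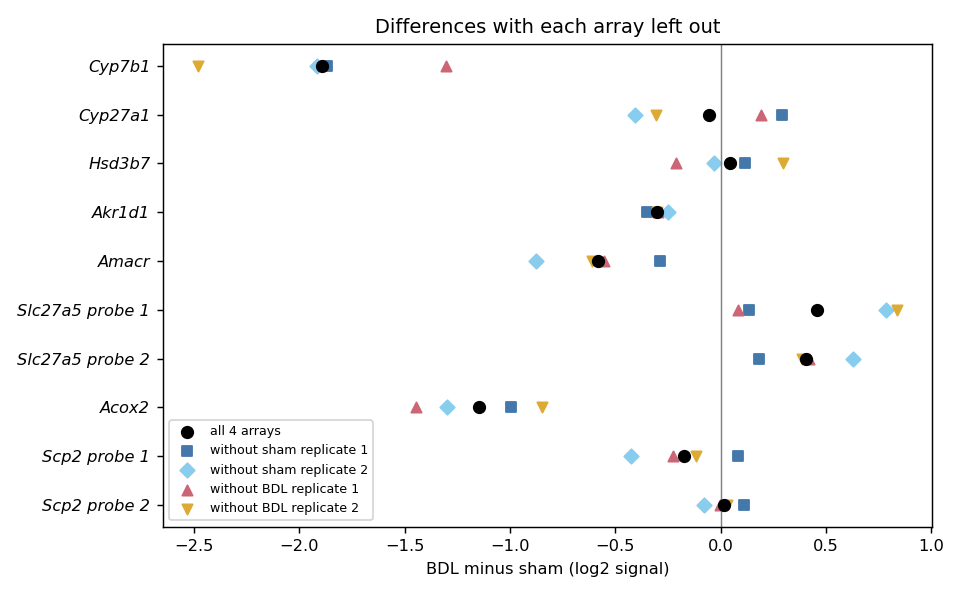
Difference BDL minus sham in log2 signal (x axis) of the 10 retained probes (y axis) with all 4 arrays and with each array left out in turn. Cyp7b1, Acox2, Amacr and Akr1d1 stay below 0 and the second Slc27a5 probe above 0 in all 4 cases. Cyp27a1, Hsd3b7 and Scp2 cross 0. The first Slc27a5 probe is drawn as fitted, although it entered only through the BDL group.

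Other enzymes of bile acid and oxysterol handling went both ways. Of 20 listed, 16 were tested, with a median difference of -0.02. With limma, 0 passed and 3 had an unadjusted p under 0.05, against 5.65% of all retained probes. The BDL arrays lay above the sham arrays for 5 and below them for 3, against 18.2% and 18.5% of all. Acnat2, a peroxisomal acyl-CoA amino acid N-acyltransferase related to the bile acid conjugating enzyme Baat, was at 2.70 and 2.46 in sham and at 4.28 and 3.85 in BDL kidneys. It was 2.82-fold higher in BDL (1.49, SE 0.25, adjusted p = 0.620), and its other retained probe differed by 1.63 (SE 0.22, adjusted p = 0.515). Acnat1, its close copy, was 1.92-fold higher (0.94, SE 0.20, adjusted p = 0.775), and the separate values of these related genes are uncertain. The peroxisomal thiolase gene Acaa1b, also one of a pair of close copies, was 1.59-fold higher (0.67, SE 0.19, adjusted p = 0.857). All 3 had both BDL arrays above both sham arrays.

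Hsd11b1, which interconverts 7-ketocholesterol and 7beta-hydroxycholesterol as well as glucocorticoids, was at 7.21 on sham replicate 1 and at 5.15, 4.90 and 5.14 on sham replicate 2 and the BDL arrays. Its difference of -1.16 (SE 0.71, adjusted p = 0.868) was -0.13 without sham replicate 1. The peroxisomal multifunctional enzyme Hsd17b4, which acts after Acox2, differed by 0.16 (SE 0.20). Other sterol and oxysterol hydroxylases were measurable, with a difference of -0.54 (SE 0.52) for Ch25h, of -0.04 (SE 0.30) for Cyp46a1 and of 0.01 (SE 0.39) for Cyp39a1, each with overlapping groups. Their signs depended on the arrays: Ch25h was at 0.18 without BDL replicate 1, and without sham replicate 1 Cyp46a1 was at 0.31 and Cyp39a1 at -0.44. Baat, Sult2a1 and Cyp11a1 were not well above background on any array. Cyp3a11 was so on 1 array of each group and was not tested.

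The redox partners of these cytochrome P450 enzymes did not separate the groups. All 5 listed (Fdx1, Fdxr, Por, Cyb5a and Cyb5r3) overlapped between sham and BDL, with a median difference of 0.01 that was -0.35 without sham replicate 2. Among 12 genes of peroxisome biogenesis and import, 4 did not overlap, 1 higher and 3 lower in BDL, a share near the 36.7% of all retained probes, and the median was -0.06. Pex7, an import receptor for peroxisomal enzymes, differed by -0.28 (SE 0.21), Pex6, which recycles the import receptor, by 0.40 (SE 0.19) and catalase (Cat) by -0.14 (SE 0.21). None of the 12 passed with limma or had an unadjusted p under 0.05.

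Of 14 receptors and factors known to act on these enzymes in liver, 13 were tested, with a median difference of -0.06. Of the 13, 0 passed with limma and 1 had an unadjusted p under 0.05, against 5.65% of all retained probes. That gene was Nr1i2, which encodes the xenobiotic receptor PXR, at -2.64 and -2.08 in sham and at -0.82 and -1.34 in BDL kidneys, 2.43-fold higher (1.28, SE 0.32, adjusted p = 0.809). The bile acid receptor FXR (Nr1h4) differed by -0.17 (SE 0.25) and its target in liver, Nr0b2, by -0.18 (SE 0.40), both with overlapping groups. Without sham replicate 1 these were 0.02 and -0.68. Nr1h3, the oxysterol receptor LXR alpha, differed by -0.46 (SE 0.26) and was lower on both BDL arrays, while a second Nr1h3 probe overlapped (-0.21, SE 0.23). Hnf4a, a hepatocyte and proximal tubule factor, differed by -0.02 (SE 0.23).

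Genes that LXR switches on when oxysterols bind it had a median difference of 0.32 over 8 genes, with 3 higher on both BDL arrays and 0 lower. Of all retained probes, 18.2% were higher and 18.5% lower in this way. Apoe was 2.05-fold higher (1.03, SE 0.40, adjusted p = 0.867), at 5.98 and 4.92 in BDL against 4.46 and 4.37 in sham kidneys. That difference was 0.50 without BDL replicate 1 and 1.57 without BDL replicate 2. Srebf1 differed by 0.50 (SE 0.29), but by 0.19 without BDL replicate 2, and Scd2 by 0.47 (SE 0.32), but by 0.088 without sham replicate 1. The cholesterol exporters Abca1 and Abcg1 differed by 0.00 (SE 0.24) and 0.15 (SE 0.29), and the sign of both depended on the arrays. The list's median lay between 0.14 without sham replicate 1 and 0.54 without sham replicate 2, and 0 of the 8 had an unadjusted p under 0.05.

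Other gene lists also stood lower in the same kidneys in which Cyp7b1 was lower. Of the lists looked up, the interferon response genes had the lowest median, -1.54 over 8 genes and -0.77 without sham replicate 1. Both BDL arrays were below both sham arrays in 7 of the 8, against 18.5% of all retained probes. With limma 0 passed and 4 had an unadjusted p under 0.05, against 5.65% of all retained probes. Ifit2, an interferon-induced gene, was at -1.04 and -1.33 in sham and at -2.35 and -2.21 in BDL kidneys (-1.10, SE 0.22, adjusted p = 0.730). The part of these genes in the members' values was not tested. Markers of the S3 segment of the proximal tubule were lower on both BDL arrays in 5 of 6 genes and higher in 1. Of all retained probes, 18.5% were lower and 18.2% higher in this way. The list's median was -0.50, and its 1 higher gene was Slc5a1 (0.48, SE 0.26). With limma 0 passed and 1 had an unadjusted p under 0.05, against 5.65% of all retained probes. The summed level of the S3 markers was 544 and 458 in sham and 264 and 331 in BDL kidneys. Slc22a7, an organic anion transporter, was 3.64-fold lower (-1.86, SE 0.54, adjusted p = 0.857), at 7.44 and 6.996 in sham and at 4.62 and 6.09 in BDL kidneys. Markers of the S1 and S2 segments had a median of 0.01 over 8 genes, 2 higher on both BDL arrays and 0 lower. Their summed level was 1349 and 1104 in sham and 1190 and 1191 in BDL kidneys. The part of the S3 markers in the Cyp7b1 and Acox2 values was not tested.

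Genes known to depend on androgens in mouse kidney were lower on both BDL arrays in 5 of the 9 measured, of 10 listed, and higher in 0, beside 18.5% and 18.2% of all retained probes. Their median was -0.43, with -0.38 without sham replicate 1 and -0.85 without sham replicate 2. With limma 0 passed and 2 had an unadjusted p under 0.05, against 5.65% of all retained probes. The summed level of the 9 genes was 1968 and 1352 in sham and 1256 and 1262 in BDL kidneys. Cyp4a12a was 3.21-fold lower (-1.68, SE 0.49, adjusted p = 0.857), and Acsm3 was 1.93-fold lower (-0.95, SE 0.31, adjusted p = 0.864). The other retained probe of Acsm3 differed by -0.83 (SE 0.26). Gusb differed by -1.90 (SE 1.03) but by -0.38 without sham replicate 1. Slc7a13 stands in both lists and was 1.35-fold lower (-0.43, SE 0.19). The part of these genes in the Cyp7b1 and Acox2 values was not tested.

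**Figure D5:**
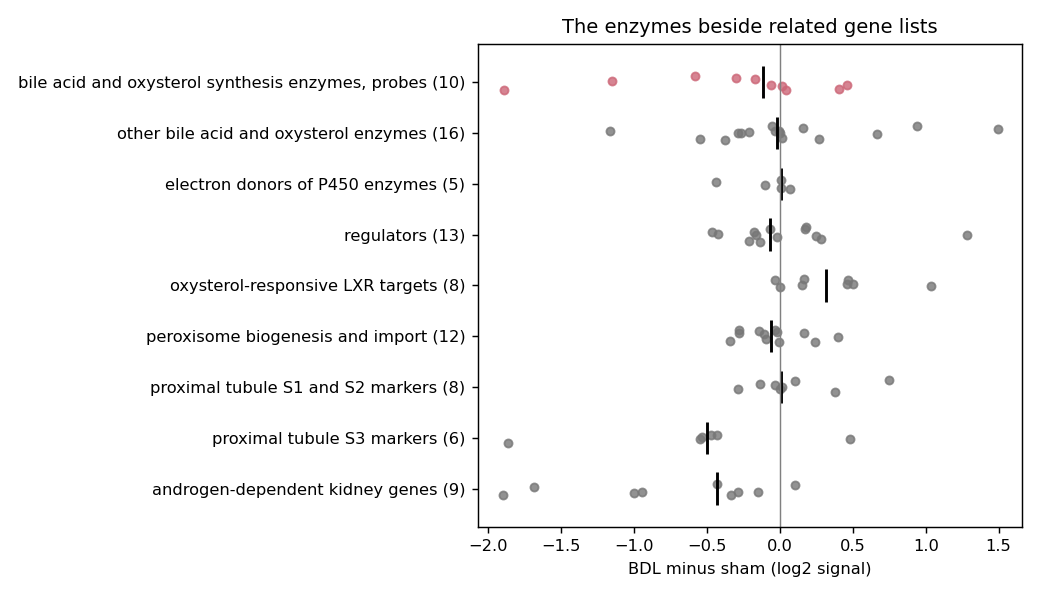
Difference BDL minus sham in log2 signal (x axis) of the 10 retained probes of the enzymes and of the tested genes of 8 related lists (y axis, number of points in brackets); black bars are medians. The S3 list (median -0.50) and the androgen-dependent list (-0.43) lie lower than the S1 and S2 list (0.01), and the LXR targets higher (0.32).

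Markers of liver and adrenal cortex were looked up as well. Of 9 hepatocyte markers, Apoa1 was well above background on 0 of the 4 arrays and 7 were tested, with a median of -0.32. By their means 6 of the 7 were lower in BDL, against 50.1% of all retained probes. Without overlap 1 was lower and 1 higher, against 18.5% and 18.2% of all. The summed levels of the 7 were 4.88 and 4.51 in sham and 9.95 and 4.76 in BDL kidneys, mostly through Apob and Serpinc1. The 1 that was higher, Serpinc1, the antithrombin gene, was at 0.22 and -0.72 in sham and at 2.72 and 1.42 in BDL kidneys (2.32 higher, SE 0.56, adjusted p = 0.809). The albumin gene Alb was at -1.13 and -2.29 in sham and at -2.73 and -2.08 in BDL kidneys (-0.70, SE 0.48), and Ahsg, which encodes fetuin-A, differed by -2.25 (SE 1.64). Of 8 adrenal cortex markers, Cyp11b1, Cyp11b2, Cyp11a1 and Mc2r were not well above background on any array. The 4 others summed to 7.15 and 5.51 in sham and to 3.79 and 4.80 in BDL kidneys, mostly through Cyp17a1. Cyp17a1 was at 2.75 and 2.31 in sham and at 1.74 and 2.10 in BDL kidneys. Of the 4, 2 were lower on both BDL arrays and 1, Cyp21a1, was higher (0.33, SE 0.19), beside 18.5% and 18.2% of all retained probes. The part of these liver and adrenal markers in the members' values was not tested.

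The probe values most like those of Cyp7b1, by Euclidean distance over the 4 arrays after centring each probe on its own mean, belonged to Defb28 (0.183), Gpr179 (0.252), Bcat1 on 2 probes (0.298 and 0.321) and 4930545H06Rik (0.347). They were the nearest among 19594 probes with another gene's symbol, and 13 of these lay within 0.5. Their differences ran from -1.95 to -1.64, and none passed (adjusted p of at least 0.637). With 4 arrays, likeness of this kind describes these arrays and no more.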

How the data were processed

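The 2 sham and 2 BDL kidney RNAs were grouped by the sample titles. The submitters' processing notes name Agilent Feature Extraction, version 11.0.1.1, as the scanner software. Its deposited processed signal is a linear intensity after background subtraction and spatial detrending, per the file headers, with no scaling that makes arrays comparable. The other deposited columns used are flags and spot types. The authors' deposited value table (35236 probes, 10 of the 12 described) holds processed signals that were each divided by the array's own constant, 709, 844, 739 and 939.8 in the order sham 1, sham 2, BDL 1, BDL 2. Its column medians were 0.328, 0.339, 0.329 and 0.330. How each constant was set is not stated, but each lay close to the array's 75th percentile found here. These percentiles were 712, 849, 741 and 945 in the same order. As an alternative, the deposited table is thus scaled almost as the main comparison is.

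Here, control and outlier spots were left out, spots of a probe were averaged as log2 signals and each array's 75th percentile was subtracted. Of 55681 probes, 13 without an unflagged spot on some array were dropped. A probe counted as well above background where more than 0.5 of its spots were, and was retained where this held on both arrays of at least 1 group (32280 probes). Accessions were named through a RefSeq table (GRCm38.p6, used for names, while the array grid lists mm9), which named 27229 probes. The test was limma's (version 3.58.1, R 4.3.3, lmFit and eBayes, two-sided), with Benjamini-Hochberg adjustment over all retained probes and a threshold of 0.05. The fit was run on data simulated under its own model as a check of the code, which says nothing of its power on these arrays. An exact permutation test was not used, since 2 against 2 arrays cannot reach the threshold. For other gene lists, a gene was represented by its brightest retained probe. Genes of these lists were named by the 4 smallest p-values or as defining markers, and others (such as Nr1h4, Hnf4a, Cat, Hsd17b4, Ch25h, Abca1 and Gusb) were added for their role after values were seen. The members and lists were chosen with earlier results of these data known. The 4 arrays share a slide and a scan time. The alternatives tried were normexp, quantile normalization, the deposited table, other filters, 1 probe per gene, an intensity trend, array weights, a replicate block and leaving out each array. Normexp used the deposited median spot and background intensities, because the files used here hold no mean spot signal.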

Additional observations from a re-analysis of the deposited data

How the results depend on the processing

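The number of member probes past the threshold was 0 under each alternative tried, as was the number over all probes, while between 1056 and 3852 probes had an unadjusted p under 0.05, against 1823 in the main comparison. Cyp7b1, Acox2, Amacr, Akr1d1 and the second Slc27a5 probe kept their direction with normexp, quantile normalization and each array left out. The filters, 1 probe per gene, the intensity trend, array weights and the replicate block left each difference as it was. Those alternatives could therefore not turn a direction. The deposited table, with 1 constant per array, left the differences nearly as they were (Cyp7b1 -1.89, Acox2 -1.15). The first Slc27a5 probe, which passed the filter only through the BDL group, lay between 0.08 and 0.84 and was absent under the stricter filter and with 1 probe per gene. Cyp7b1 ranged from -2.48 to -1.30 and Acox2 from -1.45 to -0.85 over all alternatives, the ends coming from left-out arrays. The second Scp2 probe turned to -0.033 with normexp. With 1 array left out, Cyp27a1 ranged from -0.41 to 0.29, the first Scp2 probe from -0.43 to 0.082, the second from -0.080 to 0.11 and Hsd3b7 from -0.21 to 0.29, so that the sign of these 4 depended on the array. Over the same 4 fits the median of all 10 retained member probes, the first Slc27a5 probe among them, ranged from -0.33 to 0.10. The number of these 10 without overlap ranged from 6 to 9, which fewer samples raise by construction. Without a filter on dim probes, the median difference of all probes was -0.08. The labels speak of RNA pairs without saying what a pair shares, so pairing is not settled. Deviations of same-numbered arrays correlated with r = 0.07 across probes, over 2 pairs, and the numbers were not used as pairs. With a replicate block, 0 member probes and 0 probes in all passed, 1964 had an unadjusted p under 0.05, and the median of the member probes was -0.11. Blocking on slide or scan was impossible with 1 of each. Signal over background limits Cyp7a1, Cyp8b1 and the first Slc27a5 probe.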
